A study of Mus musculus with 6 samples.

Results

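Claudins are the membrane proteins that seal tight junctions and set which ions pass between epithelial cells, and each stretch of the nephron carries its own set of them. The 10 claudin genes Cldn1, Cldn2, Cldn3, Cldn4, Cldn5, Cldn7, Cldn8, Cldn10, Cldn15 and Cldn19 were taken by name from 18822 mouse genes with a value, and all 10 passed the filter of a mean of at least 1 FPKM that left 12388 genes for testing. The samples were 3 libraries from PR3 KO mice (genotype PR3 knockout) and 3 libraries from WT mice, all of strain C57BL/6J, all labelled as renal glomeruli and all with diabetic kidney disease, so the controls carry the disease as well. PR3 is proteinase 3, a protein-cleaving enzyme stored in neutrophil granules and the product of Prtn3, and the study asks what its loss changes in diabetic glomeruli. How diabetes was induced, the age and sex of the mice and whether a library is 1 animal are left unsaid by the labels, so the p-values reflect the spread among these 6 libraries alone, and that spread may be technical. Values are FPKM, fragment counts scaled by transcript length and by all mapped fragments of a library. Fold changes are PR3 KO minus WT on the log2(FPKM + 1) scale, on which changes of low genes come out too small.

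As background, claudins span the membrane and meet claudins of the neighbouring cell through their extracellular loops, and the charges on the first loop decide whether the junction is a barrier or a pore. Claudin-2 forms the leaky cation and water pore of the proximal tubule, and claudin-10 is made in forms from alternative first exons, an anion-selective one known from the proximal tubule and a cation-selective one known from the thick ascending limb. Claudin-19 works with claudin-16 in the thick limb, where the pair is needed for calcium and magnesium uptake, and claudin-3, claudin-4, claudin-7 and claudin-8 are known from distal segments and the collecting duct. Claudin-1 marks the parietal cells of Bowman's capsule, and claudin-5 and claudin-15 have been described in renal endothelium, claudin-5 also in podocytes.

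The sequences upstream of the starts of 4 claudin genes are shown: Cldn2 and Cldn10 were the most abundant, and Cldn5 and Cldn15 had the largest falls. Each is the 250 bases before an annotated start, 5′ to 3′ on the gene's own strand, from RefSeq (GRCm38.p6), where 9 of the 10 genes had an entry. Capitals mark exact matches, on either strand, to the TATA box (TATAAA), the CCAAT box, the GC box (GGGCGG), the core of the HNF1 site (GTTAAT) or an E-box (CACCTG), none of which contains another. The gene Cldn10 is printed with both of its starts, which lie 67079 bases apart on chromosome 14 and share 1 FPKM value.
Cldn2, chrX:139800558-139800807, plus strand: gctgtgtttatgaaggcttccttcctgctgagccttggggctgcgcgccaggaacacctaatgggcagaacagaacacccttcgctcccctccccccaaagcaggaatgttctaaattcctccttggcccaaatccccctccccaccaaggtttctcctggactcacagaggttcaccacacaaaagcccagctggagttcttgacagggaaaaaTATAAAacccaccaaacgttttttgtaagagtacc
Cldn10, upstream start, chr14:118787621-118787870, plus strand: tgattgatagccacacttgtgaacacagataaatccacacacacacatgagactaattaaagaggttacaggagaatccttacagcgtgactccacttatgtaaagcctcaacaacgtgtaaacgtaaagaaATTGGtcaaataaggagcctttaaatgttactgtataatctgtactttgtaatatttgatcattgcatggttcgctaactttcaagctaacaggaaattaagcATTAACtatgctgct
Cldn10, downstream start, chr14:118854700-118854949, plus strand: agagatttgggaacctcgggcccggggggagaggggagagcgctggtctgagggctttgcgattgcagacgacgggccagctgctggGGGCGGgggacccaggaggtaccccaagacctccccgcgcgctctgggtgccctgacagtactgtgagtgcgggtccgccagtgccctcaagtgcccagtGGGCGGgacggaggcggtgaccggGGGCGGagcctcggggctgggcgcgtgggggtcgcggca
Cldn5, chr16:18776597-18776846, plus strand: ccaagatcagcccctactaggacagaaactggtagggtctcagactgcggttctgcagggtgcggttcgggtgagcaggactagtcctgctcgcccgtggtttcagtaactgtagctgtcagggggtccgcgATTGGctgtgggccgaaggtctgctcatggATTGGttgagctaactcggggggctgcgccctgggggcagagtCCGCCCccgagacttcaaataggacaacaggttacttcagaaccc
Cldn15, chr5:136967619-136967868, plus strand: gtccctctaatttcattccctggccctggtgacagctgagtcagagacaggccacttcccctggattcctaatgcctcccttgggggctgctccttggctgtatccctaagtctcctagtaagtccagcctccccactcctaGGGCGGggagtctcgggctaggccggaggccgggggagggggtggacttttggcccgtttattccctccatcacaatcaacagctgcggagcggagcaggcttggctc

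The window of Cldn2 held a TATA box beginning 35 bases before the start and no other of the 5 motifs, and that motif was present in 12.4% of 32851 windows of the same length. At Cldn10 the upstream start had a GC content of 36.0%, an HNF1 core 15 bases before it (6.43% of all windows) and a CCAAT box (33.8% of all windows). The downstream start of Cldn10 had a GC content of 72.4% and 3 GC boxes, a motif found in 32.7% of all windows, against a median GC content of 52.4% over all windows. Cldn5 had 2 CCAAT boxes and 1 GC box, and Cldn15 had 1 GC box. The E-box, found in 17.2% of all windows, was absent from these 5 windows. It was present in the window of Cldn4 and in the downstream window of Cldn7, but not in the upstream window of Cldn7. These matches describe letters in a window and do not show binding.

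Depth was read roughly from the lowest values of 52 short olfactory receptor genes, whose most common step of 0.07 or 0.08 FPKM corresponds to about 13300000 to 15200000 fragments per library if it is 1 fragment. The step rested on 3 to 7 genes per library, and 2 genes lay below it in PR3 KO 2, so these depths are uncertain. On that scale the claudins rested on about 24 fragments (Cldn3 in its lowest library) to about 13000 (Cldn2 in its highest). Prtn3, the deleted gene, was at 0.14, 0 and 0.07 FPKM in PR3 KO 1, 2 and 3, against 0.46, 0.21 and 0.22 FPKM in WT 1, 2 and 3, levels that stand for a few fragments and check the labels weakly. Beside the label of glomeruli, the 10 podocyte markers summed to 373 to 600 FPKM in PR3 KO and 671 to 1094 FPKM in WT, and the 10 proximal tubule markers to 4749 to 5074 FPKM in PR3 KO and 1768 to 3068 FPKM in WT. Tubular RNA was therefore present in all 6 libraries. Along the first principal component, which held 81.8% of the variance, WT 2 lay farthest out, at 57.9 against 21.3 and 31.7 for WT 1 and WT 3. The median fold change of all tested genes was -0.26 in the deposited values and 0.03 once libraries were scaled by the median of ratios, so a shift of 0.29 separates the scales, and each claudin below is given on both where its call differs.

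Of the 10 claudins, 1 rose in PR3 KO (Cldn2), 6 fell (Cldn4, Cldn5, Cldn7, Cldn8, Cldn15 and Cldn19) and 3 did not pass the test (Cldn1, Cldn3 and Cldn10; limma, Benjamini-Hochberg adjusted p under 0.05). Over all tested genes 11.7% rose and 41.1% fell, 52.8% in either direction, so that 7 calls in 10 genes is not far from the background. The median log2 fold change of the claudins was -0.62, against -0.26 over all tested genes. With median-of-ratios scaling 2 claudins rose and 5 fell, where 25.6% of all genes rose and 22.2% fell, 47.8% in either direction. PR3 KO and WT libraries did not overlap in 8 of the 10 claudins, against 65.1% of all tested genes (16.0% higher and 49.1% lower in PR3 KO).

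**Figure D1:**
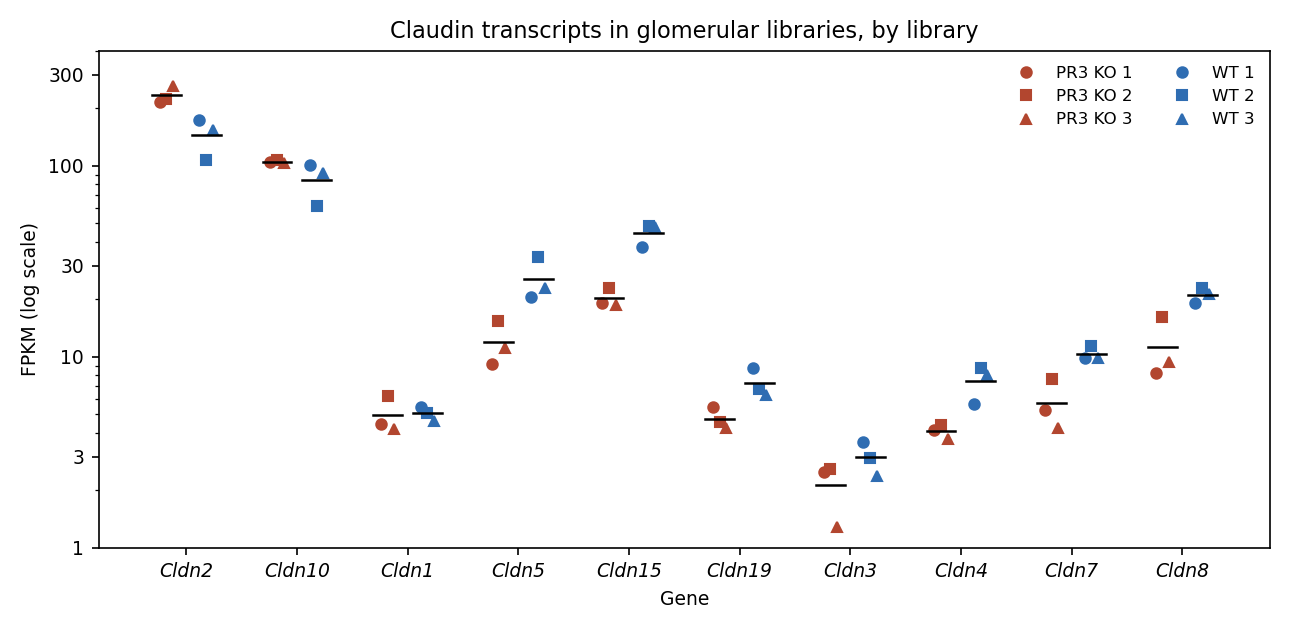
FPKM on a log scale (y axis) of the 10 claudin genes (x axis), with PR3 KO libraries in red left of WT libraries in blue, marker shapes for the library number and black lines for the mean of 3 libraries. Cldn2 is higher in every PR3 KO library than in any WT library, while Cldn5, Cldn15, Cldn19, Cldn4, Cldn7 and Cldn8 are lower, and only Cldn1 and Cldn3 overlap.

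Cldn2, the pore-forming claudin of the leaky proximal tubule, was the most abundant claudin in every library and the only one called higher. It reached 216, 225 and 262 FPKM in PR3 KO 1, 2 and 3, against 175, 107 and 154 FPKM in WT 1, 2 and 3. All PR3 KO libraries lay above all WT libraries, and WT 2 was the lowest of all. The mean was 234 ± 24.5 FPKM in PR3 KO and 145 ± 34.6 FPKM in WT (SD, n = 3 each), a ratio of 1.62. The log2 fold change was 0.71 with an SE of 0.19 (limma adjusted p = 0.0157), and 1.04 after scaling (limma adjusted p = 0.00903). Without PR3 KO 3, the library with the highest value, it was 0.63 and did not pass (limma adjusted p = 0.0601). The gene (Entrez 12738) lies on the X chromosome, chrX:139800808-139811386 on the plus strand.

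Cldn10 came next in abundance, at 104, 107 and 103 FPKM in PR3 KO 1, 2 and 3, against 101, 61.6 and 91.9 FPKM in WT 1, 2 and 3. The PR3 KO libraries lay within 4 FPKM of each other and just above WT 1, and WT 2 stood apart as the low value. The mean was 105 ± 1.90 FPKM in PR3 KO and 84.7 ± 20.5 FPKM in WT (SD, n = 3 each), and the log2 fold change of 0.34 did not pass (95% interval -0.08 to 0.75, limma adjusted p = 0.147). After scaling it was 0.66 and passed (limma adjusted p = 0.0382), while without WT 2 it was 0.12 (limma adjusted p = 0.323). Cldn10 (Entrez 58187) spans chr14:118787871-118874525 on the plus strand. Its single value covers both starts shown above, so the proximal form and the thick limb form cannot be told apart here.

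The proximal tubule markers were higher in PR3 KO, as Cldn2 was. Of 10 markers 8 rose and 2 did not pass, with a median log2 fold change of 0.80, against 11.7% of all genes rising. Slc34a1, the sodium phosphate cotransporter, was at 3025, 3083 and 3215 FPKM in PR3 KO and 1858, 1074 and 1480 FPKM in WT (log2 fold change 1.11, limma adjusted p = 0.00394). The organic anion transporter Slc22a8 gave the lowest adjusted p among these markers (log2 fold change of 1.87, limma adjusted p = 0.000798), and Slc22a6, of the same family, did not pass (0.55, limma adjusted p = 0.125). In bulk libraries, fewer or more cells of a type cannot be told apart from less or more RNA per cell. The part of tubular RNA content in the difference of Cldn2 was not tested.

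Set against the sum of those markers within each library, which removes the scaling between libraries, Cldn2 was lower and not higher in PR3 KO. Per 1000 FPKM of the summed proximal markers, Cldn2 stood at 45.2, 47.4 and 51.7 FPKM in PR3 KO 1, 2 and 3, against 56.9, 60.5 and 61.5 FPKM in WT 1, 2 and 3. For Cldn10 the same ratio was 21.8, 22.5 and 20.4 in PR3 KO, against 32.8, 34.8 and 36.8 in WT. Neither set of ratios overlapped between genotypes (two-sided exact permutation p = 0.1 each with 3 libraries per genotype). Per 1000 FPKM of the thick ascending limb markers, Cldn10 was at 160, 112 and 143 FPKM in PR3 KO, against 94.3, 50.1 and 117 FPKM in WT. That ratio was higher on average in PR3 KO and overlapped (two-sided exact permutation p = 0.2). Slc34a1 alone makes up most of the proximal marker sum, so a ratio to it is not a separate check. Per 1000 FPKM of Slc34a1, Cldn2 was at 75.3 ± 5.48 in PR3 KO and 99.1 ± 4.94 in WT (SD, n = 3 each). The single proximal markers had log2 fold changes of 0.55 (Slc22a6) to 1.87 (Slc22a8), and that of Cldn2, 0.71, lay within this range. The lower ratio is therefore to the sum and does not hold for every marker. Cldn2 also differed from Cldn10, at 2.07, 2.10 and 2.54 FPKM of Cldn2 per FPKM of Cldn10 in PR3 KO, against 1.73, 1.74 and 1.67 in WT (two-sided exact permutation p = 0.1 with 3 libraries per genotype). A p of 0.1 is the smallest that 3 against 3 libraries can give, and over the 31 shares and ratios computed it became 0.207 after Benjamini-Hochberg adjustment of these exact permutation values.

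**Figure D2:**
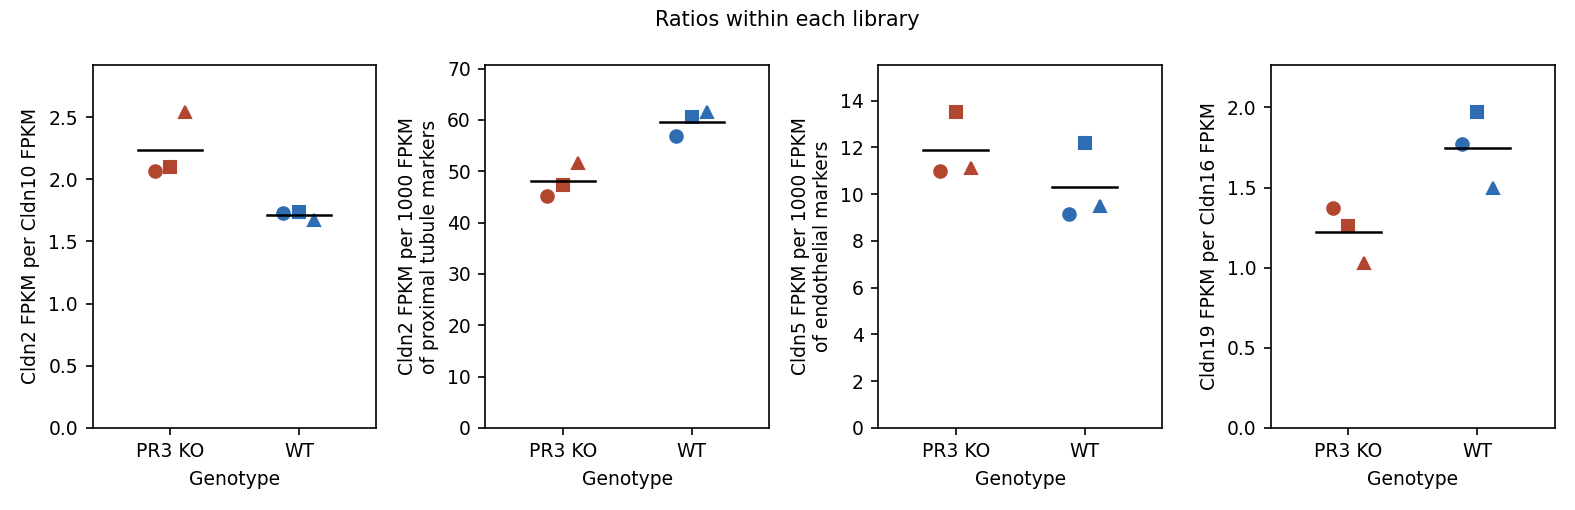
Ratios of FPKM within each library (y axes) for PR3 KO in red and WT in blue, with marker shapes for library 1 (circle), 2 (square) and 3 (triangle) and lines for the mean of 3 libraries. Cldn2 per Cldn10 is higher in PR3 KO (2.07 to 2.54 against 1.67 to 1.74), Cldn2 per summed proximal tubule markers is lower, Cldn5 per summed endothelial markers overlaps, and Cldn19 per Cldn16 is lower in PR3 KO.

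Cldn15, a cation pore best known from the small intestine, had the largest fall and the smallest adjusted p of the 10 genes. Its level was 19.1, 22.9 and 18.7 FPKM in PR3 KO 1, 2 and 3, against 37.7, 48.3 and 48.1 FPKM in WT 1, 2 and 3. The highest PR3 KO library was well below the lowest WT library. The mean fell to 20.2 ± 2.32 FPKM in PR3 KO, against 44.7 ± 6.06 FPKM in WT (SD, n = 3 each; log2 fold change -1.10 with an SE of 0.13, limma adjusted p = 0.000922). With scaling the value was -0.78 (limma adjusted p = 0.00325). The gene (Entrez 60363) lies at chr5:136967869-136975845 on the plus strand.

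Cldn5, the main claudin of endothelial junctions, is a single-exon gene (Entrez 12741, chr16:18776847-18778262, plus strand). Its transcript was at 9.13, 15.5 and 11.1 FPKM in PR3 KO 1, 2 and 3, against 20.7, 33.4 and 22.9 FPKM in WT 1, 2 and 3. The genotypes did not overlap, and library 2 was the highest within each. The mean fell to 11.9 ± 3.24 FPKM in PR3 KO, against 25.6 ± 6.78 FPKM in WT (SD, n = 3 each; log2 fold change -1.05 with an SE of 0.22, limma adjusted p = 0.00647). With scaling it was -0.74 (limma adjusted p = 0.0162). Cldn5 and Cldn15 kept a like proportion, at 0.479 to 0.676 FPKM of Cldn5 per FPKM of Cldn15 in PR3 KO and 0.476 to 0.691 in WT.

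All 10 endothelial markers fell, with a median log2 fold change of -1.30, where 41.1% of all genes fell, and their sum was 827 to 1147 FPKM in PR3 KO and 2252 to 2731 FPKM in WT. Emcn, the endothelial sialomucin endomucin, was at 301, 400 and 306 FPKM in PR3 KO, against 661, 879 and 862 FPKM in WT (log2 fold change -1.25, limma adjusted p = 0.00137). Ehd3, an endocytic protein enriched in glomerular endothelium, fell by 1.19 (limma adjusted p = 0.00131), and the endothelial factors Egfl7 and Sox17 gave the lowest adjusted p among the endothelial markers (-1.57 and -1.33, limma adjusted p = 0.000684 each). Per 1000 FPKM of these markers Cldn5 was at 11, 13.5 and 11.1 FPKM in PR3 KO, against 9.17, 12.2 and 9.51 FPKM in WT. Cldn15 was at 23.1, 19.9 and 18.8 FPKM in PR3 KO, against 16.7, 17.7 and 20.0 FPKM in WT on the same scale. Both ratios overlapped between genotypes (two-sided exact permutation p = 0.3 each with 3 libraries per genotype). Podocytes, the other glomerular cell type described with claudin-5, had 6 of 10 markers fall and 4 not pass (median -0.73). The log2 fold change of Cldn5, -1.05, lay below that median and within the range of the podocyte markers (-1.18 to -0.09). No ratio of Cldn5 to the podocyte markers was taken. Podxl, which encodes the surface sialoprotein podocalyxin, fell by 0.83, and the transcription factor gene Tcf21 fell by 0.83 (limma adjusted p = 0.0102 and 0.00817). With scaling 2 of the 10 podocyte markers fell, where 22.2% of all genes did, and Podxl did not pass (limma adjusted p = 0.0539). The count was 2 without PR3 KO 1 and 3 without PR3 KO 3, but 7 without PR3 KO 2, 8 without WT 1 and 9 with the replicate block.

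Cldn1, known from the parietal cells that line Bowman's capsule, did not pass the test. It was measured at 4.43, 6.27 and 4.21 FPKM in PR3 KO 1, 2 and 3, against 5.43, 5.10 and 4.63 FPKM in WT 1, 2 and 3. The genotypes overlapped, with the highest value and both of the lowest values in PR3 KO. The log2 fold change was -0.03, with a 95% interval from -0.38 to 0.31 (limma adjusted p = 0.855), and 0.24 with scaling (limma adjusted p = 0.175). Relative to the median of all genes, which was lower in PR3 KO, it therefore lay slightly on the higher side. Cldn1 (Entrez 12737) occupies chr16:26356645-26371839 on the minus strand, 91295 bases from Cldn16. The parietal marker list summed to 160 to 191 FPKM in PR3 KO and 127 to 144 FPKM in WT. Its largest parts were Krt8 and Lad1, with means of 66.6 and 62.2 FPKM in PR3 KO and 34.6 and 53.2 FPKM in WT. Of its 7 tested genes 3 rose and 3 fell: the keratin Krt8 rose, with a log2 fold change of 0.93 (limma adjusted p = 0.000776), and Lad1 was at 0.20 and did not pass (limma adjusted p = 0.440). The other genes that rose, named after their values were seen, were Pax2 and Pax8 (0.58 and 0.55, limma adjusted p = 0.0117 and 0.0145). The genes that fell, named after their values were seen, were Akap12, Ncam1 and the keratin Krt18 (-1.22, -0.61 and -0.70), and Krt18 did not pass with scaling (limma adjusted p = 0.104). Over all genes 11.7% rose and 41.1% fell.

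Cldn19, the thick ascending limb claudin that pairs with claudin-16, was at 5.45, 4.56 and 4.25 FPKM in PR3 KO 1, 2 and 3, against 8.74, 6.79 and 6.32 FPKM in WT 1, 2 and 3. PR3 KO libraries were all lower, with PR3 KO 1 and WT 3 nearest to each other. The mean fell to 4.75 ± 0.623 FPKM in PR3 KO, against 7.28 ± 1.28 FPKM in WT (SD, n = 3 each; log2 fold change -0.52 with an SE of 0.14, limma adjusted p = 0.0169). The call was lost with scaling (-0.24, limma adjusted p = 0.226) and without PR3 KO 3 (-0.46, limma adjusted p = 0.0617). The gene (Entrez 242653, chr4:119255441-119262438, plus strand) overlaps the antisense gene Gm12927 over 90 of its 4263 exonic bases, and without known strand use reads from that stretch cannot be told apart.

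Its partner Cldn16, singled out after its values were seen, was at 3.99, 3.62 and 4.14 FPKM in PR3 KO, against 4.95, 3.44 and 4.2 FPKM in WT (log2 fold change -0.07, 95% interval -0.38 to 0.24, limma adjusted p = 0.670). Per FPKM of Cldn16 there were 1.37, 1.26 and 1.03 FPKM of Cldn19 in PR3 KO 1, 2 and 3, against 1.77, 1.97 and 1.5 in WT 1, 2 and 3. These ratios did not overlap (two-sided exact permutation p = 0.1, the smallest possible with 3 libraries per genotype). Of 7 other thick limb markers 0 passed in limma, with 2 at an unadjusted p under 0.05 and a median of -0.40. Over all tested genes 52.8% passed in either direction, and the median was -0.26. The count of thick limb markers that fell was 1 with a pseudocount of 0.1 FPKM, without PR3 KO 2 or without WT 3. With the replicate block the count was 2. The 7 markers summed to 653 to 959 FPKM in PR3 KO and 784 to 1229 FPKM in WT. Umod, encoding uromodulin, was at 346, 587 and 429 FPKM in PR3 KO and 630, 767 and 483 FPKM in WT (limma adjusted p = 0.125), Egf at a log2 fold change of -0.07 (limma adjusted p = 0.812), and the potassium channel gene Kcnj1 at -0.56 (limma adjusted p = 0.0503). Per 1000 FPKM of these markers Cldn19 was at 6.33 ± 1.83 in PR3 KO and 7.26 ± 1.5 in WT (SD, n = 3 each), which overlapped.

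Of the claudins of the distal tubule and collecting duct, Cldn8, Cldn7 and Cldn4 fell and Cldn3 did not pass. Cldn8, which is needed to bring claudin-4 to the junction of collecting duct cells, was at 8.18, 16.1 and 9.38 FPKM in PR3 KO 1, 2 and 3, against 19.2, 23.0 and 21.3 FPKM in WT 1, 2 and 3. PR3 KO 2 was nearly as high as WT 1, and the other PR3 KO libraries were well below. The mean fell to 11.2 ± 4.26 FPKM in PR3 KO, against 21.1 ± 1.87 FPKM in WT (SD, n = 3 each; log2 fold change -0.91 with an SE of 0.22, limma adjusted p = 0.0108). It stayed past the threshold with scaling, at -0.60 (limma adjusted p = 0.0404). Cldn8 is a single-exon gene (Entrez 54420) at chr16:88560826-88563183 on the minus strand.

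Cldn7, found along the lateral membrane of collecting duct cells as well as at junctions, was at 5.24, 7.65 and 4.25 FPKM in PR3 KO 1, 2 and 3, against 9.86, 11.4 and 9.83 FPKM in WT 1, 2 and 3. The genotypes did not overlap. Its mean fell to 5.71 ± 1.75 FPKM in PR3 KO, against 10.4 ± 0.898 FPKM in WT (SD, n = 3 each; log2 fold change -0.79 with an SE of 0.18, limma adjusted p = 0.00841; with scaling -0.50, limma adjusted p = 0.0413). The gene (Entrez 53624) lies at chr11:69964779-69967886 on the plus strand. Cldn8 and Cldn7 kept a like proportion, at 1.56, 2.10 and 2.21 FPKM of Cldn8 per FPKM of Cldn7 in PR3 KO, against 1.95, 2.01 and 2.16 in WT.

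Cldn4 and Cldn3 are single-exon genes that lie 39279 bases apart on chromosome 5 on opposite strands (Entrez 12740, chr5:134945123-134946934, minus, and Entrez 12739, chr5:134986214-134987476, plus). Cldn4, which with claudin-8 forms a chloride pathway in the collecting duct, was at 4.14, 4.39 and 3.70 FPKM in PR3 KO 1, 2 and 3, against 5.67, 8.73 and 8.03 FPKM in WT 1, 2 and 3. PR3 KO libraries were all lower and close to each other, and WT 1 lay nearest to them. The mean fell to 4.08 ± 0.349 FPKM in PR3 KO, against 7.48 ± 1.6 FPKM in WT (SD, n = 3 each; log2 fold change -0.72 with an SE of 0.16, limma adjusted p = 0.00661; with scaling -0.44, limma adjusted p = 0.0338). Its neighbour Cldn3, a sealing claudin of distal segments, was the least abundant of the 10, at 2.48, 2.60 and 1.28 FPKM in PR3 KO 1, 2 and 3, against 3.60, 2.97 and 2.39 FPKM in WT 1, 2 and 3. PR3 KO 3 was the lowest library, and the genotypes overlapped through WT 3. The log2 fold change of Cldn3 was -0.37 with a 95% interval from -0.84 to 0.10 (limma adjusted p = 0.155), and -0.16 without PR3 KO 3. An antisense gene, Wbscr25, overlaps 40 of the 1259 exonic bases of Cldn3, and without known strand use reads from that stretch cannot be told apart.

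Markers of collecting duct principal cells were lower as well, 4 of 7 tested genes falling (median -0.62), where 41.1% of all genes fell. These calls were all lost without PR3 KO 1 or WT 2, and the count was 1 without PR3 KO 3 or WT 3. With scaling 0 passed in limma, with 1 at an unadjusted p under 0.05. The listed markers summed to 142 to 187 FPKM in PR3 KO and 199 to 398 FPKM in WT. Aqp2, the vasopressin-regulated water channel, was at 46.5, 62.5 and 49.4 FPKM in PR3 KO, against 78.7, 112 and 209 FPKM in WT (log2 fold change -1.21, limma adjusted p = 0.0165), and Aqp3, the basolateral one, was at -0.15 (limma adjusted p = 0.549). Per 1000 FPKM of these markers, Cldn8 was at 49.4, 86.0 and 65.9 FPKM in PR3 KO, against 96.8, 87.7 and 53.4 FPKM in WT, and the ratios of Cldn4, Cldn3 and Cldn7 overlapped between genotypes too. Among 6 markers of the distal convoluted tubule, which summed to 321 to 504 FPKM in PR3 KO and 453 to 640 FPKM in WT, 1 fell: the calcium-binding protein gene Calb1, at -0.81 (limma adjusted p = 0.0284), a call lost with scaling (limma adjusted p = 0.146) and without PR3 KO 1, PR3 KO 3 or WT 2, while the salt transporter gene Slc12a3 was at -0.39 (limma adjusted p = 0.263). Against these markers Cldn8 did not overlap, at 28.0 ± 4.67 per 1000 FPKM in PR3 KO and 40.2 ± 5.95 in WT, and nor did Cldn7, at 14.4 ± 0.995 in PR3 KO and 19.6 ± 1.97 in WT (SD, n = 3 each; two-sided exact permutation p = 0.1 for each). Of 8 intercalated cell markers, at a sum of 47.6 to 75.1 FPKM in PR3 KO and 95.9 to 118 FPKM in WT, 5 fell (median -0.57, against 41.1% of all genes falling), led by the proton pump subunit gene Atp6v1g3 at -1.42 (limma adjusted p = 0.00201), and Atp6v1b1, another subunit, fell by 0.71 (limma adjusted p = 0.0109). With scaling 3 of the 8 fell, where 22.2% of all genes did, and Atp6v1b1 was at -0.39 (limma adjusted p = 0.0935). No listed marker of any of these cell types was at 0 in any library. The part of these cell types in the claudin differences was not tested.

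**Figure D3:**
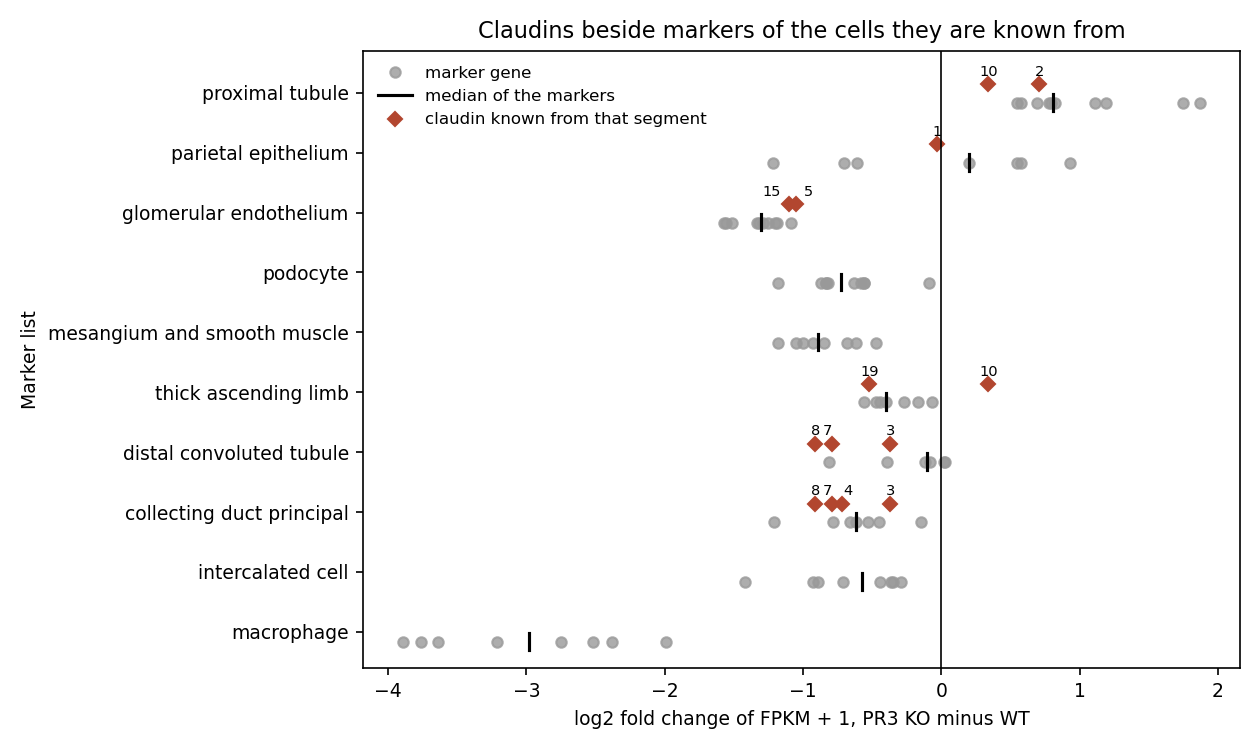
The log2 fold change of FPKM + 1, PR3 KO minus WT (x axis), for markers of 10 cell types (grey points, with the median as a black bar) and for the claudins known from them (red diamonds, numbered by claudin), some of which are drawn in more than 1 row. Cldn15 lies within and Cldn5 just above the range of the endothelial markers, Cldn2 and Cldn10 below the median of the proximal tubule markers, and Cldn10 above every thick limb marker.

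The share of Cldn2 within a library was higher in all PR3 KO libraries than in any WT library, while the sum of the 10 claudins overlapped. The 10 claudins together were at 379, 412 and 423 FPKM in PR3 KO 1, 2 and 3, against 386, 308 and 369 FPKM in WT 1, 2 and 3 (two-sided exact permutation p = 0.2 with 3 libraries per genotype). Cldn2 and Cldn10 together made up 84.7%, 80.6% and 86.6% of that sum in PR3 KO, against 71.3%, 54.7% and 66.5% in WT, with no overlap (two-sided exact permutation p = 0.1 with 3 libraries per genotype, 0.207 adjusted). Cldn2 alone was 57.9 ± 3.81% in PR3 KO and 40.5 ± 5.33% in WT, and Cldn15 was 5.0 ± 0.568% in PR3 KO and 12.8 ± 2.96% in WT (SD, n = 3 each). The share of Cldn10 was 27.6%, 26.0% and 24.5% in PR3 KO, against 26.1%, 20.0% and 24.9% in WT, and overlapped. WT 2, with the lowest sum, had the lowest share of Cldn2 and the highest of Cldn5 (10.8%).

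In order of level, PR3 KO libraries ran Cldn2, Cldn10, Cldn15, Cldn5, Cldn8, Cldn7, Cldn1, Cldn19, Cldn4 and Cldn3. Neighbours in that order overlapped from Cldn5 to Cldn8 and along the run from Cldn7 to Cldn4. In WT libraries the order was the same down to Cldn7 and then ran Cldn4, Cldn19, Cldn1 and Cldn3, with overlaps between Cldn5 and Cldn8 and between Cldn4 and Cldn19. The mean of Cldn1 was thus near that of Cldn7 in PR3 KO (4.97 ± 1.13 and 5.71 ± 1.75 FPKM), and below it in WT (5.05 ± 0.402 and 10.4 ± 0.898 FPKM; SD, n = 3 each).

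**Figure D4:**
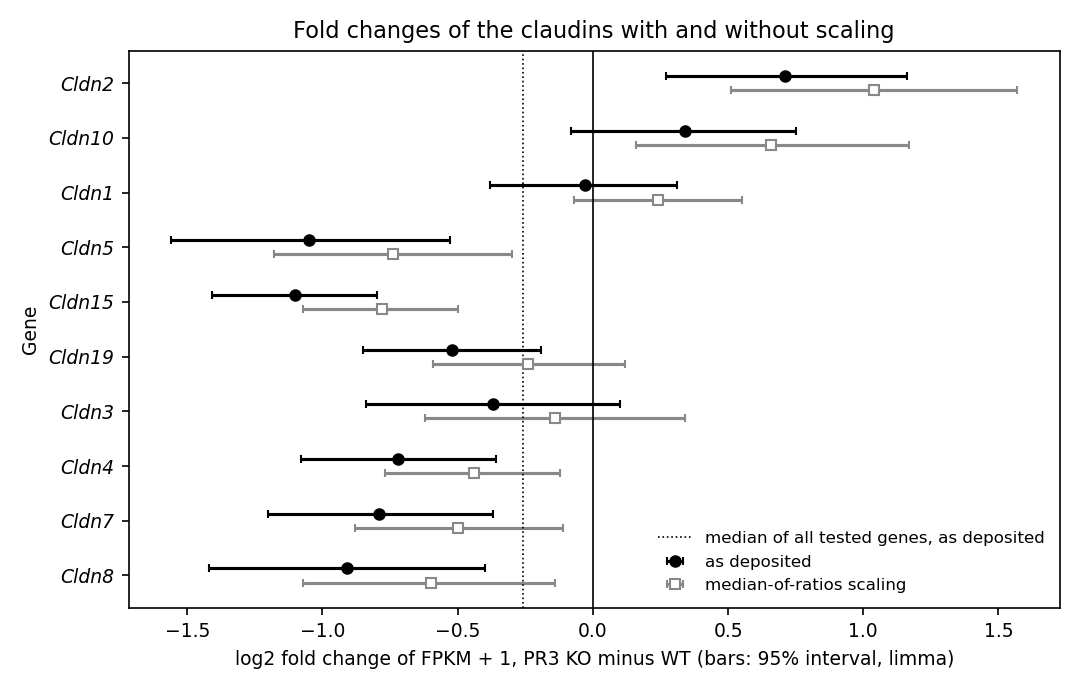
The log2 fold change of FPKM + 1, PR3 KO minus WT (x axis), for each claudin (y axis), from the deposited values (black circles) and with median-of-ratios scaling (open grey squares), with limma's 95% intervals as bars. The dotted line is the median of all tested genes as deposited, -0.26, and scaling moves every claudin to the right, so that the interval of Cldn10 leaves 0 and that of Cldn19 reaches it.

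Among the rest of the family, 16 of 21 listed genes had a value and 4 were tested. Cldn12, a claudin linked to paracellular calcium passage, rose, at 17.1, 17.9 and 19.2 FPKM in PR3 KO 1, 2 and 3, against 16.1, 11.1 and 12.7 FPKM in WT 1, 2 and 3 (log2 fold change 0.43 with an SE of 0.14, limma adjusted p = 0.0283; with scaling 0.74, limma adjusted p = 0.00739). The groups did not overlap, and the call was lost without PR3 KO 1, PR3 KO 2, PR3 KO 3, WT 2 or WT 3 in turn. Cldn34c1 fell, to 0.787 ± 0.175 FPKM in PR3 KO against 1.90 ± 0.576 FPKM in WT (SD, n = 3 each; log2 fold change -0.68, limma adjusted p = 0.0117), but 13.8% of its 50-base stretches also occur in transcripts of other genes, so its value is uncertain. Cldnd1, a claudin-domain gene and with Cldn12 the most abundant of these, was at 13.6 ± 0.679 FPKM in PR3 KO and 14.9 ± 1.38 FPKM in WT (SD, n = 3 each; limma adjusted p = 0.308). Below the filter, Cldn11 and Cldnd2, named after their values were seen, did not overlap: Cldn11 was at 0.04, 0.04 and 0 FPKM in PR3 KO, against 0.23, 0.46 and 0.52 FPKM in WT, and Cldnd2 at 0.54, 0.80 and 0.77 FPKM in PR3 KO, against 0.31, 0.23 and 0.10 FPKM in WT (two-sided exact permutation p = 0.1 each with 3 libraries per genotype). The other 10 genes under the filter overlapped or were at 0 throughout.

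Of 25 other tight junction genes, all tested, 3 rose, 10 fell and 12 did not pass, with a median log2 fold change of -0.18. Over all genes 11.7% rose and 41.1% fell, so these counts lie at the background. With scaling 8 rose and 8 fell, where 25.6% of all genes rose and 22.2% fell, and the median was 0.14. Tjp1, encoding the scaffold ZO-1 that binds the tails of claudins, was at 15.02, 19.1 and 18.9 FPKM in PR3 KO 1, 2 and 3, against 35.2, 51.0 and 36.8 FPKM in WT 1, 2 and 3 (log2 fold change -1.16 with an SE of 0.16, limma adjusted p = 0.00131). Every PR3 KO library lay below every WT library. Esam, an adhesion molecule of endothelial junctions, gave the lowest adjusted p of these genes and fell to 41.7 ± 6.40 FPKM in PR3 KO, against 106 ± 12.9 FPKM in WT (SD, n = 3 each; -1.32, limma adjusted p = 0.000825). The multi-PDZ scaffold gene Mpdz fell by 0.90 and the junctional adhesion molecule gene Jam3 by 0.75 (limma adjusted p = 0.00135 and 0.00184). Ocln, encoding occludin, did not pass, at 4.32 ± 0.782 FPKM in PR3 KO and 3.71 ± 0.592 FPKM in WT (SD, n = 3 each; log2 fold change 0.17, 95% interval -0.17 to 0.52, limma adjusted p = 0.348), and was at 0.44 with scaling (limma adjusted p = 0.0330). The genes called higher were the polarity scaffolds Pard3 and Patj and the tricellular junction gene Lsr (0.28, 0.46 and 0.32, limma adjusted p = 0.0390, 0.0487 and 0.0418), and these calls were all lost when any 1 of PR3 KO 1, PR3 KO 2, PR3 KO 3, WT 2 or WT 3 was left out.

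Across the 6 libraries, the genes with profiles most like those of the claudins were found by the root mean square (RMS) difference between centred log2(FPKM + 1) values, among all tested protein-coding genes other than predicted ones. The nearest to Cldn2 was Galnt3, a glycosyltransferase gene, with 16.8, 17.2 and 20.4 FPKM in PR3 KO 1, 2 and 3, against 12.7, 8.42 and 11.1 FPKM in WT 1, 2 and 3 (RMS difference 0.0535, where the spread of Cldn2 itself was 0.423). Smpd2 and Phlda2 followed. Nearest to Cldn10 was Tinag, which encodes a tubular basement membrane antigen, at 70.1, 69.0 and 69.2 FPKM in PR3 KO, against 67.3, 40.5 and 61.9 FPKM in WT (RMS difference 0.0219), followed by Timm13 and the polarity gene Crb3. Speg, Tspan15 and the myosin light chain kinase gene Mylk were nearest to Cldn5 (0.0262, 0.0706 and 0.0719), and Ica1, Tmed5 and St6galnac6 to Cldn15 (0.0384, 0.0456 and 0.0528). For Cldn8 they were Tspan1, Trim47 and Edn1, for Cldn7 Frk, Ly6g6d and Mboat2, and for Cldn4 Ifrd1, Akr1b7 and the actin gene Actg1. For Cldn19 they were Kdm1b, Hbb-bh2 and Ttc22, for Cldn3 Ppp1r1a, Kng1 and Gcgr, and for Cldn1 Mpp7, Dusp19 and Tmem62. With 6 libraries in 2 genotypes, such likeness is a description of these libraries.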

How the data were processed

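Per the labels' protocols, glomerular RNA of 6 libraries came from Trizol extraction and oligo(dT) selection, and was read on DNBSEQ. Bowtie2 and the build GRCm38.p6 were used, per the submitters' processing notes; not given in the sources used here: versions, the quantification tool, its annotation, strand use and any filter. The deposited values are FPKM per the file headers, rounded to 2 decimals, with no counts. FPKM is scaled by the mapped fragments, so abundant transcripts lower the values of all other genes.

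Of 22064 Entrez IDs, 3242 were empty in all files and 18822 had a value, of which 18770 matched a symbol in RefSeq's GRCm38.p6 table. Limma 3.58.1 with statmod 1.5.0 (R 4.3.3) was fitted to log2(FPKM + 1) of the 12388 genes averaging 1 FPKM or more, on genotype alone, using an intensity trend and robust moderation, and p-values were adjusted by Benjamini-Hochberg over all of them, with a threshold of 0.05. The fit was tested on simulated data. Lower genes, sums and ratios were compared by exact two-sided permutation tests over libraries. Median-of-ratios scaling, other pseudocounts, no filter, no trend, a replicate block and leaving out each library were the alternatives. Python 3.11.15, pandas 2.3.3, numpy 2.4.6, scipy 1.17.1 and matplotlib 3.10.9 were used.

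Transcripts of the 10 claudins shared no 50-base stretch with other genes, except 0.985% of those of Cldn19, shared with Gm12927. The members and lists were chosen with earlier results of these data known. Named markers are the 2 most abundant of each list and the 1 with the smallest adjusted p, of which 1 is not reported here; named tight junction genes are up to 4 per direction by adjusted p, with Tjp1 and Ocln; of other claudins, those past the threshold and the 2 most abundant; and the 3 nearest profiles per claudin. The lists of mesangial and smooth muscle markers (5 of 8 fell, median -0.89) and macrophage markers (8 of 8 fell, median -2.98) are not tied to a claudin. Over all tested genes 41.1% fell. With scaling 3 of the 8 mesangial and smooth muscle markers and 8 of the 8 macrophage markers fell, where 22.2% of all genes did. Leaving out 1 library at a time, the mesangial and smooth muscle count was 3 to 6 and the macrophage count stayed at 8.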

Additional observations from a re-analysis of the deposited data

How the results depend on the processing

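For the 10 claudin fold changes, 112 of 120 values under 12 alternatives kept their direction and their side of the threshold, 3 lost the call, 1 gained it and 4 changed sign. All 4 changes of sign were of Cldn1, which was not called: 0.24 with median-of-ratios scaling, and a range of -0.18 to 0.06 when 1 library was left out. With median-of-ratios scaling Cldn10 passed at 0.66 and Cldn19 did not at -0.24, 2 claudins rose, 8 tight junction genes rose, 3158 of all genes rose and 2742 fell, and the mean of Cldn2 in PR3 KO was 261 in place of 234 FPKM. With no filter, 2 other claudins rose, 2 fell and 1 tight junction gene rose, and with no intensity trend 1 tight junction gene rose. Leaving out 1 library at a time gave ranges of 0 to 1 claudins higher, 0.51 to 0.86 for Cldn2, -0.61 to -0.40 for Cldn19, 0 to 1 other claudins higher, 0 to 2 tight junction genes higher and 917 to 1514 of all genes higher. The cause of these differences was not tested. The shared replicate numbers did not pair the libraries: deviations from the group means of same-numbered libraries correlated at 0.07, 0.27 and -0.09, and not every library correlated best with its own number. With the replicate block 1 claudin rose and 6 fell, as without it, and 1550 of all genes rose and 5143 fell. Cldn3, with few fragments, and genes under 1 FPKM are limited by depth.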
